A study of Homo sapiens with 12 samples.

Results

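The TGF-beta and BMP pathways pass signals of secreted ligands to SMAD transcription factors. Ligands are stored in latent form or held by antagonists, and once free they bring together type I and type II receptor kinases, which phosphorylate SMAD2 and SMAD3 (TGF-beta and activin branch) or SMAD1, SMAD5 and SMAD9 (BMP branch). The inhibitory SMAD6 and SMAD7, the co-repressors SKI, SKIL and TGIF1 and the ubiquitin ligases SMURF1 and SMURF2 restrain the signal, and ID1, ID2 and ID3 are well known direct targets of the BMP branch. In pancreatic ductal adenocarcinoma (PDAC), the pathway is known for growth arrest and for epithelial-mesenchymal transition.

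The genes described here were 48 members of these pathways, chosen by gene symbol out of the 48114 genes listed for each cell line. They comprised 10 ligands, 5 genes of latency and processing, 5 ligand antagonists, 10 receptors, 7 SMADs, 5 intracellular regulators and 6 targets. All 48 were tested in PANC-1 cells, since each had a mean normalised count of at least 10 over the 9 PANC-1 libraries.

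PolyA-selected RNA was sequenced from PANC-1, a PDAC line used as a model of the basal-like subtype, and from HPAF-II, a PDAC line of the classical subtype. PANC-1 cells had received a control siRNA (siCtrl) or, at 40 nM, siRNA against QKI (siQKI) or RBFOX2 (siRBFOX2), and HPAF-II cells a control siRNA, and all were collected at 48 h with 3 libraries per group. QKI and RBFOX2 are RNA-binding proteins that regulate splicing, and the comparison asks which genes of these pathways change in level when either is depleted. The silencing was transient, each knockdown was made in PANC-1 only, and the control and QKI siRNAs were pools of several sequences. The medium contained fetal bovine serum. The values below are gene counts divided by a size factor of the library and are called normalised counts. How many sequenced fragments stand behind a count is unknown, so the error is the spread between the 3 libraries.

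QKI itself was at 25909, 24539 and 26150 normalised counts in siCtrl and at 4630, 5453 and 5020 in siQKI, that is 19.7% of the control mean remained. RBFOX2 was at 15355, 15508 and 15424 in siCtrl and at 2403, 2171 and 1712 in siRBFOX2, with 13.6% remaining. RBFOX2 was also lower in siQKI (log2 fold change -0.29, SE 0.09, limma adjusted p = 0.0207), a call that was lost without siCtrl replicate 2 or 3 or siQKI replicate 1 or 3 (adjusted p 0.0508 to 0.0585). The keratins KRT8, KRT18 and KRT19 were expressed in both lines, VIM and ZEB1 were high in PANC-1, and EPCAM, CDH1 and GATA6 were high in HPAF-II. Of these markers, CDH1, the epithelial cadherin, rose 2.63-fold in siQKI and 1.45-fold in siRBFOX2 (limma adjusted p = 1.54e-07 and 0.00177), but KRT18 fell in both knockdowns (adjusted p = 0.00716 and 0.000128) and KRT8 and KRT19 in siRBFOX2, and EPCAM and KRT7 were not called. Of the mesenchymal markers, CDH2 rose in both (adjusted p = 0.000513 and 0.00319), VIM and ZEB1 fell in siQKI (adjusted p = 0.0152 and 0.00249), and FN1 was not called. The part of these markers in the results below was not tested. The immune marker CD68 was expressed in both lines, the other 7 immune, endothelial and fibroblast markers had means of at most 24.0 normalised counts in any PANC-1 group, and pairs of libraries of a PANC-1 group correlated with Pearson r of 0.965 to 0.973 across genes. In such bulk RNA, fewer cells that express a gene and less RNA per cell cannot be told apart.

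In siQKI, 27 of the 48 members changed, 18 up and 9 down, where a change means a limma adjusted p under 0.05 over all 22544 genes tested. Of all genes tested, 33.0% were called, 14.9% up and 18.1% down, against 56.2% of the members. Calls were more frequent among well-expressed genes. With a mean of at least 1000, 54.0% of all genes and 26 of 35 members were called. The median log2 fold change of the members was 0.21, beside 0.03 for all genes. At least 1.5-fold changes were found for 6 members (9.03% of all genes), of which FSTL3, SMAD6, TGFB2 and ID2 rose (5.87% of all genes) and INHBA and TGFB3 fell (3.16%). Without the mean-variance trend of the fit, LTBP2, ACVR1, SMAD5, TGIF1, ID3 and PMEPA1 lost their call (adjusted p 0.0517 to 0.119). In 33 members the 3 siQKI libraries lay entirely above (23) or below (10) the 3 siCtrl libraries, beside 44.7% of all genes.

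In siRBFOX2, 20 members changed, 11 up and 9 down, beside 26.5% of all genes tested (12% up and 14.5% down), and the median log2 fold change was 0.07 for the members and 0.01 for all genes. Among genes with a mean of at least 1000, 45.0% of all genes and 18 of 35 members were called. Fewer members, 12, were called without siCtrl replicate 3 or without siRBFOX2 replicate 1, and the number of rises went from 11 to 6 without siCtrl replicate 2, siCtrl replicate 3 or siRBFOX2 replicate 1. Calls of all genes fell too, from 5985 to 5063 without siCtrl replicate 2, 4862 without siCtrl replicate 3 and 4935 without siRBFOX2 replicate 1. Without the mean-variance trend 11 members were called, beside 4259 of all 22544 genes tested. There INHBA, LTBP2, LTBP4, FST, BMPR2, SMAD5, SMAD6, SMURF1 and SMURF2 missed the threshold (adjusted p 0.0533 to 0.178). At least 1.5-fold changes were seen in 4 members (5.71% of all genes), of which TGFB2, FST and FSTL3 rose (4.09%) and NOG fell (1.62%). The libraries did not overlap in 24 members, 14 above and 10 below siCtrl, beside 37.9% of all genes.

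The knockdowns were also compared with each other, a contrast that holds no control library. In this contrast 22 members differed, 15 higher and 7 lower in siQKI than in siRBFOX2, beside 21.5% of all genes tested (37.1% of all genes and 20 of 35 members at a mean of at least 1000). Of all genes, 9.93% were higher and 11.6% lower. Without siRBFOX2 replicate 1, or without the trend, 4 members rather than 7 were lower in siQKI. Calls of all genes in either direction fell as well, from 4844 to 4164 and 3374. The differences of BMP6, FSTL3, ACVR1 and SKI were lost without the trend (adjusted p 0.0791 to 0.139). Differences of at least 1.5-fold were found for 5 members (4.33% of all genes): TGFBR3, ID2 and ID3 were higher (2.09%) and TGFB3 and INHBA lower (2.24%) in siQKI. The libraries did not overlap in 25 members, beside 35.2% of all genes. Since siQKI and siRBFOX2 were set against the same siCtrl libraries, values of both knockdowns are given side by side for each member below.

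**Figure D1:**
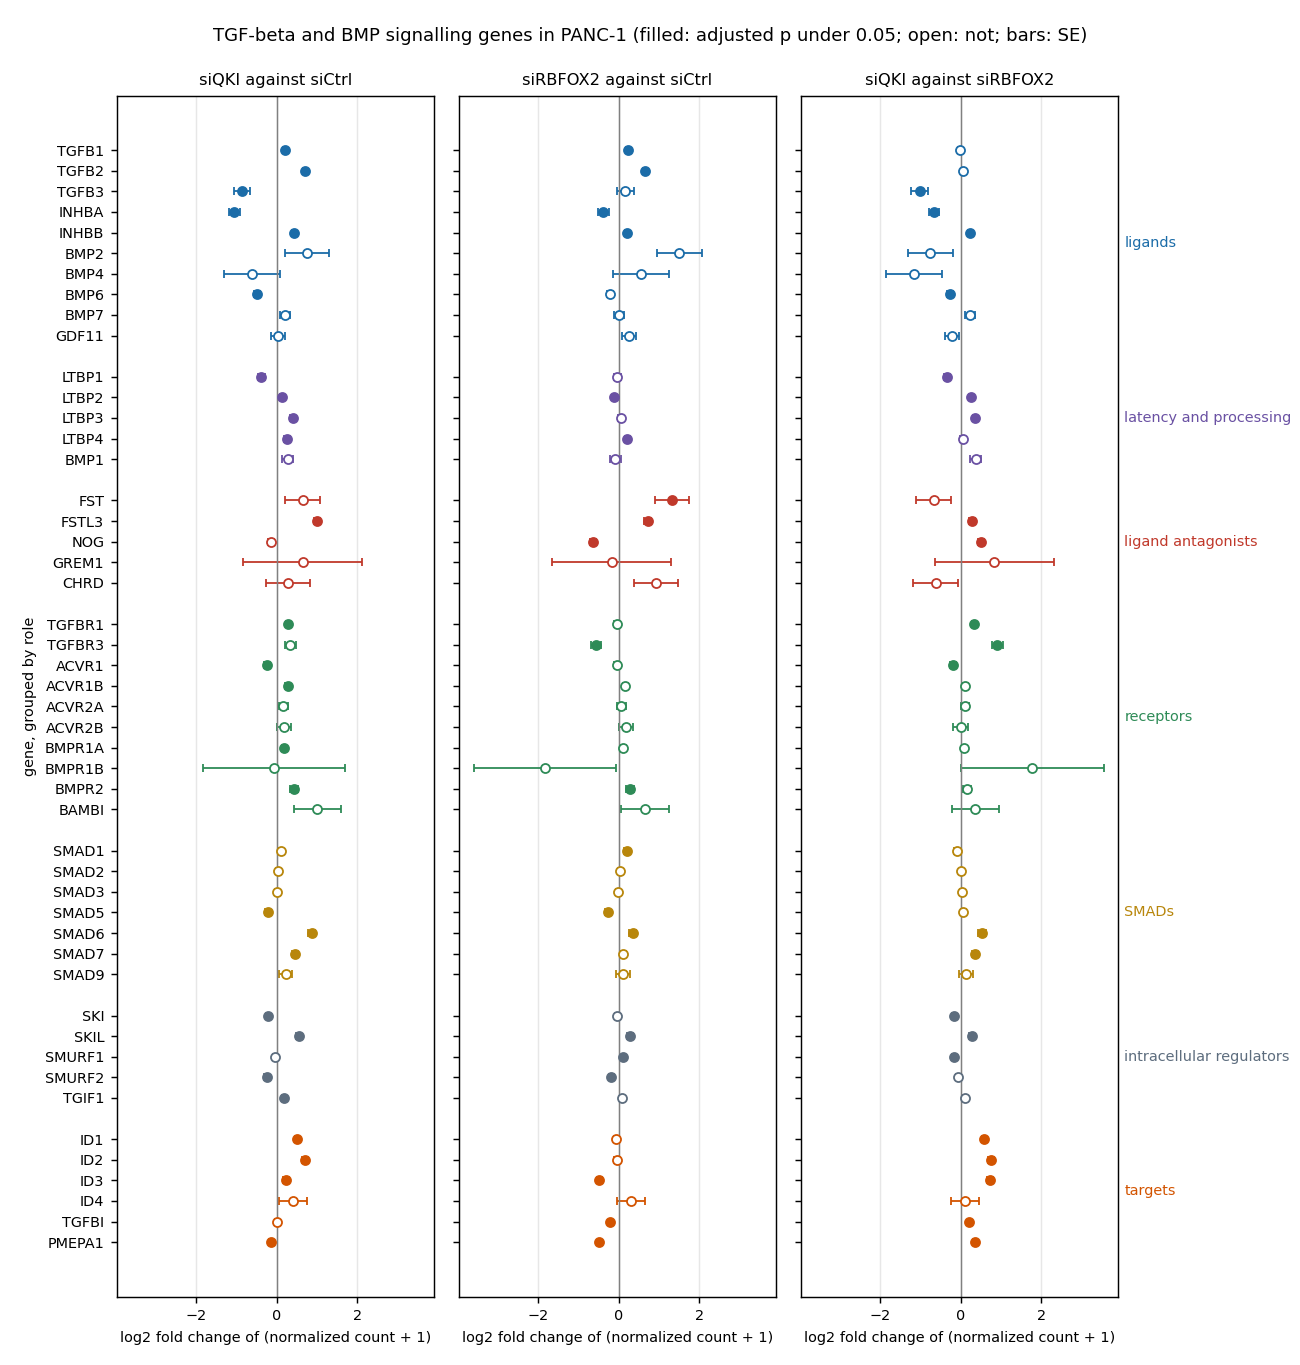
Log2 fold changes of the 48 members in PANC-1 cells, grouped by role, for siQKI against siCtrl, siRBFOX2 against siCtrl and siQKI against siRBFOX2 (x axis: log2 fold change of the normalised count plus 1, bars: SE, filled points: adjusted p under 0.05). Of the targets, 5 of 6 lie to the right of 0 with filled points in the contrast of siQKI with siRBFOX2. Of the 10 ligands, 1 lies to the right and 3 to the left with filled points in that contrast.

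Among the 10 ligands, siQKI raised TGFB1, TGFB2 and INHBB and lowered TGFB3, INHBA and BMP6, and siRBFOX2 raised TGFB1, TGFB2 and INHBB and lowered INHBA. TGFB2 (chr1:218345336-218444619 on hg38), a TGF-beta ligand, was at 12225, 12106 and 12667 in siCtrl, at 20396, 19633 and 20178 in siQKI and at 18713, 20269 and 18758 in siRBFOX2. Every knockdown library exceeded every control library, and the knockdowns overlapped each other. TGFB2 thus rose 1.63-fold in siQKI (log2 0.70, SE 0.04, limma adjusted p = 2.07e-08) and 1.56-fold in siRBFOX2 (log2 0.64, SE 0.04, adjusted p = 1.19e-07), and the knockdowns differed by 0.06 (SE 0.04, adjusted p = 0.394). TGFB1, another TGF-beta ligand, rose 1.15-fold in siQKI (adjusted p = 0.00598) and 1.17-fold in siRBFOX2 (adjusted p = 0.0038). An antisense gene, TGFB2-AS1, overlaps TGFB2 by 343 bases, but its mean did not exceed 215 normalised counts in any PANC-1 group.

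TGFB3 (chr14:75958097-75983011), the third TGF-beta ligand, was at 323, 337 and 322 normalised counts in siCtrl, at 210, 146 and 191 in siQKI and at 366, 338 and 394 in siRBFOX2. The siQKI libraries lay below all others. TGFB3 fell by 0.86 on the log2 scale in siQKI (SE 0.21, limma adjusted p = 0.00486), was not called in siRBFOX2 (log2 0.16, SE 0.21, adjusted p = 0.644), and was 2.02-fold lower in siQKI than in siRBFOX2 (log2 -1.02, SE 0.21, adjusted p = 0.00237). The TGF-beta ligands thus did not move together in siQKI.

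The activin subunits also moved apart. INHBA (chr7:41685114-41703090), which forms activin A, was at 2137, 1601 and 1779 in siCtrl, at 747, 946 and 960 in siQKI and at 1237, 1426 and 1542 in siRBFOX2. The 3 groups did not overlap, with siCtrl highest and siQKI lowest. The fall in siQKI was 2.08-fold (log2 -1.05, SE 0.13, limma adjusted p = 2.07e-05) and that in siRBFOX2 1.31-fold (log2 -0.39, SE 0.13, adjusted p = 0.0439), and the knockdowns differed by -0.67 (SE 0.13, adjusted p = 0.00198). The call in siRBFOX2 was lost without siCtrl replicate 1 or 3, siQKI replicate 2 or siRBFOX2 replicate 1 or 2, with adjusted p between 0.0513 and 0.195. INHBB, the subunit of activin B, whose values are given in full because they were seen to oppose those of INHBA, was at 7859, 8204 and 7680 in siCtrl, 10931, 10244 and 10733 in siQKI and 9029, 9268 and 9176 in siRBFOX2. It rose in siQKI (log2 0.43, SE 0.05, limma adjusted p = 6.6e-06) and in siRBFOX2 (log2 0.21, SE 0.05, adjusted p = 0.00425), and again the 3 groups did not overlap.

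Of the BMP ligands, BMP6 fell 1.40-fold in siQKI (mean 5856 ± 376 in siCtrl and 4198 ± 474 in siQKI, SD, n = 3, limma adjusted p = 0.000218) and was not called in siRBFOX2 (log2 -0.21, adjusted p = 0.0643). It passed the threshold there without siQKI replicate 2 (adjusted p = 0.033), after trimmed-mean rescaling (0.0463) and in a fit of siRBFOX2 and siCtrl alone (0.0384). The difference of BMP6 between the knockdowns was called (log2 -0.27, adjusted p = 0.0219), but not without siQKI replicate 1 or 3 or siRBFOX2 replicate 1 or 3 (adjusted p 0.0658 to 0.0988). BMP6 overlaps TXNDC5 by 479 bases, and TXNDC5 was far more abundant, at 69533 in siCtrl. BMP7 was near 1000 in each group and was not called, nor was the activin-like ligand GDF11. GDF11 overlaps SARNP by 4802 bases, and SARNP, at a mean of 21548 in siCtrl, fell in both knockdowns (log2 -0.58 and -0.43). BMP2 and BMP4, the ligands of classical BMP signalling, were scarce in PANC-1. BMP4 did not exceed 121 normalised counts in any library, and BMP2 was at 29.7 to 56.0 in siCtrl, 46.1 to 156 in siQKI and 77.5 to 224 in siRBFOX2 (log2 1.51, SE 0.55, limma adjusted p = 0.0583 in siRBFOX2). BMP2 passed the threshold there without siQKI replicate 2 (adjusted p = 0.0417) or siRBFOX2 replicate 2 (adjusted p = 0.0471). In a fit of siRBFOX2 and siCtrl alone it passed as well (adjusted p = 0.0434).

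**Figure D2:**
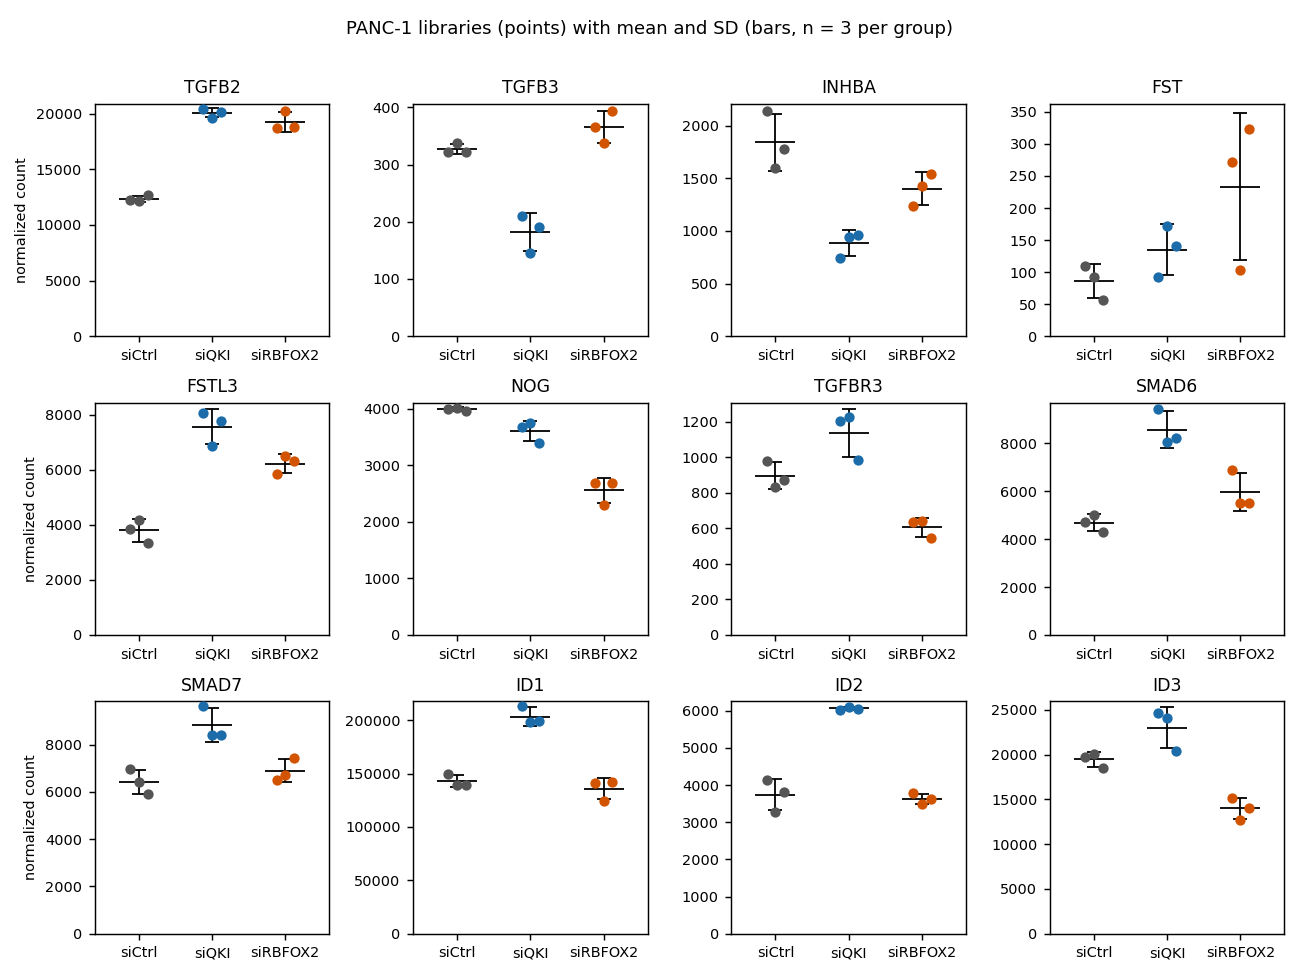
Normalised counts of 12 members in the 9 PANC-1 libraries (y axis, starting at 0 in each panel, points: libraries, bars: mean and SD, n = 3 per group). TGFB2 and FSTL3 stand above siCtrl in both knockdowns, INHBA stands below it in both, and ID1 and ID2 stand above siCtrl in siQKI but overlap it in siRBFOX2.

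Some latent TGF-beta binding proteins, such as LTBP1, tether the stored ligand to the extracellular matrix. Of the 5 genes of latency and processing, LTBP3 (1.32-fold, limma adjusted p = 8.76e-05), LTBP4 (1.20-fold, adjusted p = 0.00694) and LTBP2 (1.10-fold, adjusted p = 0.015) rose in siQKI and LTBP1 fell (1.30-fold, adjusted p = 0.00221). LTBP1, the classical carrier of latent TGF-beta, was at 2149, 2174 and 2455 in siCtrl and at 1760, 1691 and 1751 in siQKI, with no overlap, and its mean in siRBFOX2 was 2208 (log2 -0.03, not called). LTBP3 was higher and LTBP1 lower in siQKI than in siRBFOX2, each with a called difference. LTBP2, the most abundant of the 4, fell 1.08-fold in siRBFOX2 (adjusted p = 0.0446) and rose in siQKI, and its difference between the knockdowns was 0.24 (SE 0.04, adjusted p = 0.000288). The small LTBP2 changes were not stable. The rise in siQKI was lost without siCtrl replicate 3 (adjusted p = 0.0518) or siQKI replicate 1 (adjusted p = 0.0646), and the fall in siRBFOX2 without any siCtrl or siRBFOX2 replicate or without siQKI replicate 2 or 3 (adjusted p 0.0546 to 0.139). LTBP4 rose in siRBFOX2 as well (1.16-fold, adjusted p = 0.0261), a call lost without siCtrl replicate 2 or 3 or siRBFOX2 replicate 1 or 2 (adjusted p 0.0503 to 0.0919). BMP1, a metalloprotease that cleaves procollagens and chordin, was not called in any contrast. It passed the threshold without siCtrl replicate 1 in siQKI (adjusted p = 0.0293) and between the knockdowns (0.0441), and between them without siQKI replicate 2 (0.0437).

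Of the 5 antagonists, FSTL3 rose in both knockdowns. FSTL3 (chr19:676392-683393), a secreted protein that binds activins, was at 3866, 4170 and 3349 in siCtrl, at 8069, 6861 and 7770 in siQKI and at 5827, 6512 and 6321 in siRBFOX2. All 3 groups were apart, with siQKI highest. This corresponds to a 2-fold rise in siQKI (log2 0.998, SE 0.08, limma adjusted p = 2.83e-07) and a 1.64-fold rise in siRBFOX2 (log2 0.72, SE 0.08, adjusted p = 1.39e-05). The difference between the knockdowns (log2 0.28, SE 0.08, adjusted p = 0.023) was lost without siQKI replicate 1 or 3 or siRBFOX2 replicate 1 (adjusted p 0.0812 to 0.1). FST (chr5:53480587-53487134), the related follistatin, was much scarcer, at 109, 92.9 and 56.3 in siCtrl, 92.4, 173 and 140 in siQKI and 272, 104 and 323 in siRBFOX2. Its libraries overlapped between the groups. FST was called in siRBFOX2 (log2 1.32, SE 0.43, adjusted p = 0.0345) but not without siCtrl replicate 2 or 3 or siRBFOX2 replicate 1 or 3 (adjusted p 0.0573 to 0.152), and was not called in siQKI (log2 0.65, SE 0.43, adjusted p = 0.29). Between the knockdowns it was not called (adjusted p = 0.324; 0.047 without siRBFOX2 replicate 2).

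NOG (chr17:56593699-56595611) encodes noggin, which binds BMPs and blocks their receptors' access. It was at 4002, 4026 and 3970 in siCtrl, at 3689, 3746 and 3404 in siQKI and at 2690, 2300 and 2694 in siRBFOX2. All siRBFOX2 libraries lay below the others, and the siQKI libraries lay just below siCtrl. NOG fell by 0.65 on the log2 scale in siRBFOX2 (SE 0.07, limma adjusted p = 1.47e-05), was not called in siQKI (log2 -0.15, SE 0.07, adjusted p = 0.152), and was 1.41-fold higher in siQKI than in siRBFOX2 (adjusted p = 0.000182). The other BMP antagonists were scarce. GREM1 did not exceed 75.3 in any library and was listed at 0 in siRBFOX2 replicate 1, CHRD lay between 37.0 and 326, and neither was called. CHRD lies within a region shared with EIF2B5, which is more abundant by far (mean 17019 in siCtrl).

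Among the 10 receptors, TGFBR1, ACVR1B, BMPR1A and BMPR2 rose and ACVR1 fell in siQKI, while BMPR2 rose and TGFBR3 fell in siRBFOX2. None of these changes against siCtrl reached 1.5-fold. ACVR1B, not called in siRBFOX2, passed there with a minimum mean of 50 (limma adjusted p = 0.0483) and after upper-quartile rescaling (0.027). TGFBR1, the type I receptor of TGF-beta, was at 15639, 14186 and 13891 in siCtrl, 18108, 17222 and 17568 in siQKI and 13695, 14541 and 13795 in siRBFOX2, and its full values are shown as those of the principal TGF-beta receptor among the members. It rose 1.21-fold in siQKI (limma adjusted p = 0.000544) and was 1.26-fold higher there than in siRBFOX2 (adjusted p = 0.000212). TGFBR3 (chr1:91680343-91906002), the co-receptor betaglycan, was at 980, 832 and 873 in siCtrl, at 1204, 1224 and 983 in siQKI and at 634, 639 and 546 in siRBFOX2. The siRBFOX2 libraries were the lowest and the siQKI libraries the highest, without overlap. TGFBR3 fell by 0.56 on the log2 scale in siRBFOX2 (SE 0.13, adjusted p = 0.00496), missed the threshold in siQKI (log2 0.34, SE 0.13, adjusted p = 0.0591), and was 1.87-fold higher in siQKI than in siRBFOX2 (log2 0.90, SE 0.13, adjusted p = 0.00014). The miss in siQKI was narrow, since TGFBR3 passed there without siQKI replicate 3 (adjusted p = 0.0306), after upper-quartile rescaling (0.0277), with a minimum mean of 50 (0.0489) and in a fit of siQKI and siCtrl alone (0.0499).

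Of the type I receptors for BMPs, BMPR1A rose 1.14-fold in siQKI (limma adjusted p = 0.0129, but 0.0623 without siQKI replicate 2 and 0.0607 without siQKI replicate 3). ACVR1 fell 1.18-fold (adjusted p = 0.00974, but 0.0563 without siCtrl replicate 3 and 0.0534 without siQKI replicate 1). It was also lower in siQKI than in siRBFOX2 (adjusted p = 0.0453), a difference lost without siCtrl replicate 1, siQKI replicate 1 or 2 or any siRBFOX2 replicate (adjusted p 0.0562 to 0.198). BMPR2, the type II receptor for BMPs, was at 4682, 4747 and 4651 in siCtrl, 5657, 6222 and 7079 in siQKI and 5561, 6701 and 4940 in siRBFOX2. All knockdown libraries were above the controls, with a wider spread. The rise in siQKI was 1.34-fold (adjusted p = 0.00316), and the rise in siRBFOX2 was 1.21-fold (adjusted p = 0.0463) and was lost without any siCtrl replicate, siQKI replicate 2 or siRBFOX2 replicate 1 or 2 (adjusted p 0.0613 to 0.218). BMPR2 did not differ past the threshold between the knockdowns (adjusted p = 0.341; 0.0429 without siRBFOX2 replicate 2). The activin receptors ACVR2A and ACVR2B were not called in any contrast. Neither were BMPR1B and the pseudoreceptor BAMBI, which were scarce in PANC-1. BMPR1B was listed at 0 in 3 of the 9 libraries. BAMBI was at 37.3, 54.0 and 37.2 in siCtrl, 127, 62.8 and 79.7 in siQKI and 134, 23.2 and 94.5 in siRBFOX2, so that all siQKI libraries lay above siCtrl (2.01-fold, limma adjusted p = 0.221, not called).

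Of the 7 SMADs, SMAD6 and SMAD7 rose and SMAD5 fell in siQKI, and SMAD1 and SMAD6 rose and SMAD5 fell in siRBFOX2. The signal-transducing SMAD2 and SMAD3 were not called in any contrast. SMAD3 was at a mean of 60441 ± 996 in siCtrl, 60452 ± 2042 in siQKI and 59609 ± 2386 in siRBFOX2 (SD, n = 3), and its log2 fold change was 0.00 in siQKI (SE 0.04) and -0.02 in siRBFOX2 (SE 0.04). The inhibitory SMAD6 (chr15:66702236-66782849) was at 4719, 5007 and 4305 in siCtrl, at 9438, 8057 and 8207 in siQKI and at 6886, 5522 and 5519 in siRBFOX2. The 3 groups did not overlap, with siQKI highest and siCtrl lowest. SMAD6 rose 1.83-fold in siQKI (log2 0.87, SE 0.09, limma adjusted p = 2.36e-06) and 1.27-fold in siRBFOX2 (log2 0.35, SE 0.09, adjusted p = 0.00868), and the knockdowns differed by 0.52 (SE 0.09, adjusted p = 0.000524). SMAD7, the other inhibitory SMAD, shown in full to set it beside SMAD6, was at 6953, 6405 and 5914 in siCtrl, 9641, 8399 and 8421 in siQKI and 6516, 6711 and 7433 in siRBFOX2. It rose 1.37-fold in siQKI (adjusted p = 0.000184), overlapped siCtrl in siRBFOX2 (log2 0.10, adjusted p = 0.363), and the difference between the knockdowns was called (log2 0.36, adjusted p = 0.00249).

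In the BMP class, SMAD5 fell 1.16-fold in siQKI (limma adjusted p = 0.0133) and 1.21-fold in siRBFOX2 (adjusted p = 0.00406). The call in siQKI was lost without siCtrl replicate 3 (adjusted p = 0.0711) or siQKI replicate 1 (adjusted p = 0.0681). SMAD1 rose 1.14-fold in siRBFOX2 (adjusted p = 0.044), a call lost when any library other than siQKI replicate 1 was left out (adjusted p 0.0549 to 0.15). SMAD9, at 403 to 563 normalised counts over all PANC-1 libraries, was not called.

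Among the 5 intracellular regulators, SKIL and TGIF1 rose and SKI and SMURF2 fell in siQKI, and SKIL and SMURF1 rose and SMURF2 fell in siRBFOX2. The co-repressors SKI and SKIL moved in opposite directions in siQKI. SKIL, chosen for this contrast after its values were seen, was at 3857, 3634 and 3741 in siCtrl, 5318, 5579 and 5545 in siQKI and 4641, 4814 and 4189 in siRBFOX2, in 3 groups that did not overlap. It rose 1.46-fold in siQKI (limma adjusted p = 9.09e-06) and 1.21-fold in siRBFOX2 (adjusted p = 0.00443). SKI was at 14974, 14038 and 14342 in siCtrl and at 12785, 12127 and 12220 in siQKI, a 1.17-fold fall (adjusted p = 0.00237), and at a mean of 13976 in siRBFOX2. The difference of SKI between the knockdowns (adjusted p = 0.0186) was lost without siQKI replicate 2 or 3 or siRBFOX2 replicate 1 (adjusted p 0.0658 to 0.0968). TGIF1 was not called between the knockdowns but passed after upper-quartile rescaling (limma adjusted p = 0.0403). Of the ubiquitin ligases, SMURF2 fell 1.19-fold in siQKI (adjusted p = 0.00387) and 1.14-fold in siRBFOX2 (adjusted p = 0.027). The latter was lost without siCtrl replicate 3 or siRBFOX2 replicate 1 or 3 (adjusted p 0.0625 to 0.141). SMURF1 rose 1.08-fold in siRBFOX2 (adjusted p = 0.0476), a call lost when any library other than siRBFOX2 replicate 2 was left out (adjusted p 0.0555 to 0.172). SMURF1 overlaps TRRAP by 9040 bases, and TRRAP was abundant, at a mean of 48514 in siCtrl.

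Of the 6 target genes, 5 (ID1, ID2, ID3, TGFBI and PMEPA1) were higher in siQKI than in siRBFOX2, beside 9.93% of all genes, and none was lower. These 5 averaged over 1000 normalised counts, a level at which this contrast called 37.1% of all genes in either direction. Of 6 further BMP targets that were not members, 0 were higher and 1 was lower (11.6% of all genes lower). Of 10 further TGF-beta targets, also not members, 4 were higher and 2 lower. Against siCtrl, ID1, ID2 and ID3 rose and PMEPA1 fell in siQKI, and ID3, TGFBI and PMEPA1 fell in siRBFOX2. ID proteins bind basic helix-loop-helix factors and keep them off DNA. ID1, the most abundant member, shown in full to stand beside ID2 and ID3, was at 149555, 139495 and 139695 in siCtrl, 213094, 198153 and 198729 in siQKI and 141283, 124327 and 142047 in siRBFOX2. The siQKI libraries stood above all others, while siCtrl and siRBFOX2 overlapped. ID1 rose 1.42-fold in siQKI (log2 0.51, SE 0.05, limma adjusted p = 2.28e-06), with -0.07 in siRBFOX2 (SE 0.05, adjusted p = 0.336) and a difference of 0.58 between the knockdowns (SE 0.05, adjusted p = 1.4e-06). ID2 (chr2:8682047-8684461) was at 4132, 3285 and 3821 in siCtrl, 6027, 6112 and 6056 in siQKI and 3775, 3485 and 3617 in siRBFOX2. It showed the same order of groups, with a 1.63-fold rise in siQKI (log2 0.70, SE 0.08, adjusted p = 4.44e-06) and a difference of 0.74 between the knockdowns (SE 0.08, adjusted p = 5.74e-06).

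ID3 (chr1:23557919-23559794) was at 19796, 20080 and 18544 in siCtrl, at 24634, 24061 and 20404 in siQKI and at 15145, 12755 and 14084 in siRBFOX2. The 3 groups were apart, with siCtrl between the knockdowns. ID3 fell 1.39-fold in siRBFOX2 (log2 -0.48, SE 0.07, limma adjusted p = 0.000154) and was 1.64-fold higher in siQKI than in siRBFOX2 (log2 0.72, SE 0.07, adjusted p = 4.49e-06). Its rise in siQKI was 1.18-fold (adjusted p = 0.018) and was lost without siCtrl replicate 3 or siQKI replicate 1 or 2 (adjusted p 0.0782 to 0.0876). ID4 did not exceed 185 normalised counts and was not called. PMEPA1, a TGF-beta-induced inhibitor of SMAD signalling shown in full after its values were seen, was at 50190, 50056 and 48722 in siCtrl, 47856, 42475 and 45390 in siQKI and 36732, 35647 and 34450 in siRBFOX2. It fell 1.39-fold in siRBFOX2 (adjusted p = 1.95e-06) and 1.10-fold in siQKI (adjusted p = 0.0296), the latter lost without siCtrl replicate 1 or 2 or siQKI replicate 2 or 3 (adjusted p 0.067 to 0.166) and after upper-quartile rescaling (0.248). TGFBI, a secreted matrix protein named for its induction by TGF-beta, fell 1.15-fold in siRBFOX2 (adjusted p = 0.000942) and was not called in siQKI (log2 0.00, adjusted p = 0.98).

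The promoter windows of 43 members were found in RefSeq (GRCh38.p14), and no window was at hand for BMP1, BMP2, BMP7, NOG and SKI. In the 250 bases before each start, both strands were searched for the letters of the palindromic SMAD-binding element GTCTAGAC, for the GC-rich BMP-SMAD element GGCGCC and for the CAGA box CAGAC. None of these strings contains another. GTCTAGAC stood in 0.182% of the 35116 windows of all genes and, among the 83 windows of the members, in 1, that of SMAD6. GGCGCC stood in 16.4% of all windows and in 20 member windows, and CAGAC in 38.0% of all windows and in 34 member windows, where windows of the same gene can overlap. The windows of SMAD6 and FSTL3, the members with the largest called rises in siQKI, of ID1, the most abundant target, and of INHBA, the member with the largest called fall, are shown 5′ to 3′ with matches in capitals. SMAD6 lies at chr15:66701986-66702235 on the plus strand, FSTL3 at chr19:676142-676391 on the plus strand, ID1 at chr20:31605039-31605288 on the plus strand and INHBA at chr7:41703091-41703340 on the minus strand.
SMAD6: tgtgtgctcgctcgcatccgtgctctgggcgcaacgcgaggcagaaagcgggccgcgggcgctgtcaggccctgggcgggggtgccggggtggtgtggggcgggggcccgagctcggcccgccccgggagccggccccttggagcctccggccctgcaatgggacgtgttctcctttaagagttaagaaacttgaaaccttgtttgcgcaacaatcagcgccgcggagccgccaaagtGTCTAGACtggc
FSTL3: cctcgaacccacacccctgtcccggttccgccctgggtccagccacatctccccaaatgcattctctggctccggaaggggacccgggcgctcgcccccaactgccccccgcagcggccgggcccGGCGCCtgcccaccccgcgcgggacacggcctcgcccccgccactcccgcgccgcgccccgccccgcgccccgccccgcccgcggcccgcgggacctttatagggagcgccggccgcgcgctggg
ID1: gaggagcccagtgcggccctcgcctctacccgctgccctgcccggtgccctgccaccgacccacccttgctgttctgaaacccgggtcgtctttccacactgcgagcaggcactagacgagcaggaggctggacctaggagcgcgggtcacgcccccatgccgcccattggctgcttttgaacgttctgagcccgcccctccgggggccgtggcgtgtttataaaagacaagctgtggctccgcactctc
INHBA: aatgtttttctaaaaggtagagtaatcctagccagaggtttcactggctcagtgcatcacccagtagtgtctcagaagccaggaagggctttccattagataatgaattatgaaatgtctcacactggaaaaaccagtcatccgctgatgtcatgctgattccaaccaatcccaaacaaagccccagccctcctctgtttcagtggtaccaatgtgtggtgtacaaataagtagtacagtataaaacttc
The match in SMAD6 begins 12 bases before the start, that in FSTL3 is GGCGCC at 125 bases before it, and the windows of ID1 and INHBA hold none of these strings. For each printed gene the most upstream start with few exonic bases was used. By GENCODE 29, 8 bases of the SMAD6 window, 27 of FSTL3, 6 of ID1 and 18 of INHBA lie in annotated exons. A match describes the letters of the window, sequence further upstream was not searched, and binding was not measured.

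In expression per kilobase of exon, 4 targets were the most abundant members in siCtrl. ID1 stood at 115908 normalised counts per kb, TGFBI at 15299, ID3 at 10837 and PMEPA1 at 8837, and SMAD3 led the SMADs at 6632. Among the ligands, INHBB (2470), TGFB1 (2439), TGFB2 (2394) and BMP6 (2106) were alike per kb, while TGFB3 was at 66.6 and BMP2 and BMP4 at 11.8 and 19.5. NOG (2114) and FSTL3 (1237) were the abundant antagonists, and TGFBR1 (2129) and ACVR1 (1879) the abundant receptors. The lowest levels were those of BMPR1B (2.54) and GREM1 (1.37). Exon lengths came from GENCODE 29 and may differ from the exons that were counted.

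A further 85 genes of the pathways that were not members were listed by role, and 70 of them passed the filter. In siQKI, 17 rose and 20 fell (33.0% of all genes called). In siRBFOX2, 15 rose and 18 fell (26.5%), and between the knockdowns 11 were higher and 11 lower in siQKI (21.5%). Their median log2 fold change was 0.11 in siQKI and 0.02 in siRBFOX2. In these contrasts 14.9% of all genes rose and 18.1% fell in siQKI, and 12% rose and 14.5% fell in siRBFOX2, with more calls among well-expressed genes as above. Of the 16 SMAD partners and modifiers, 1 rose and 9 fell in siQKI and 1 rose and 7 fell in siRBFOX2. The list for the release of latent TGF-beta also holds genes of its storage and of ligand processing, such as FBN1 and FURIN. Of the 8 tested genes of this list, 4 rose and none fell in siQKI, and 3 rose and none fell in siRBFOX2. THBS1, thrombospondin, which activates latent TGF-beta, was at 5842, 4749 and 5376 in siCtrl, 16617, 15100 and 14453 in siQKI and 19564, 20529 and 19684 in siRBFOX2. It had the largest called rise in siRBFOX2 among these genes at a mean of at least 50 (log2 1.91, SE 0.07, limma adjusted p = 1.1e-10) and rose in siQKI as well (log2 1.53, SE 0.07, adjusted p = 5.5e-10). ITGB8, the integrin subunit that also frees TGF-beta, rose in siQKI (log2 1.68, adjusted p = 3.49e-05) and was not called in siRBFOX2 (log2 0.36, adjusted p = 0.279), with a called difference of 1.32 (adjusted p = 0.000558).

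The other named rises were NEO1, a co-receptor, in siQKI (log2 0.93) and the ligands GDF9 (1.41) and GDF10 (1.05) in siRBFOX2. NEO1 was also called higher in siRBFOX2 (log2 0.61 to 0.86 with 1 library left out). GDF9 was called higher in siQKI as well (log2 0.64 to 1.27 with 1 library left out). That GDF9 call was lost without any library other than siCtrl replicate 2 or siQKI replicate 1 (limma adjusted p 0.0548 to 0.201). The GDF10 call was lost without siCtrl replicate 1 or 3 or siRBFOX2 replicate 1 or 2 (limma adjusted p 0.0708 to 0.115). The largest falls in siQKI were those of the ligand GDF5 (log2 -1.40, SE 0.22, limma adjusted p = 0.000176), the TGF-beta target TGM2 (-0.87, SE 0.05, adjusted p = 1.24e-08) and the BMP target MSX1 (-0.55, SE 0.11, adjusted p = 0.00146). In siRBFOX2 they were those of the receptor AMHR2 (-1.40, adjusted p = 0.0208; 0.0654 to 0.0905 without siCtrl replicate 1 or 3 or siRBFOX2 replicate 2) and of the TGF-beta targets CCN2 (-0.90, adjusted p = 2.8e-08) and ANGPTL4 (-0.88, adjusted p = 4.77e-08). CCN2 and ANGPTL4 fell in siQKI also, by 0.51 and 0.39 on the log2 scale, and both were higher in siQKI than in siRBFOX2 (adjusted p = 9.83e-05 and 1.58e-05). TGM2 was lower in siQKI than in siRBFOX2 (log2 -0.83, adjusted p = 5.76e-08). GDF5 was also called lower in siRBFOX2 (log2 -0.89 to -0.59 with 1 library left out). This call was lost without siCtrl replicate 2 or 3 or siRBFOX2 replicate 2 (limma adjusted p 0.0596 to 0.104). Among the 10 further TGF-beta targets, 2 rose and 4 fell in siQKI (14.9% and 18.1% of all genes), 1 rose and 4 fell in siRBFOX2 (12% and 14.5%), and 4 were higher and 2 lower in siQKI than in siRBFOX2 (9.93% and 11.6%). Among the 6 further BMP targets, 2 rose and 1 fell in siQKI, and 2 rose and 0 fell in siRBFOX2. Of these 6, 0 were higher and 1 lower in siQKI than in siRBFOX2, beside the same shares of all genes.

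The siCtrl libraries of the lines were then set side by side. HPAF-II and PANC-1 values were normalised in separate tables, so every library was brought to the same sum of 1000000, no test was run, and a difference is given as the log2 ratio of means with a pseudocount of 0.01. In 31 members the lines were at least 2-fold apart with no overlap between libraries, 12 higher and 19 lower in HPAF-II, beside 42.7% of the 24673 genes compared (21.1% higher and 21.6% lower). The median ratio of the members was -0.33 on the log2 scale, beside 0.08 for all genes. GREM1 and ID4, listed at 0 in all 3 HPAF-II libraries, were counted as lower but are given no ratio. At least 4-fold apart were 17 members, 5 higher and 12 lower, beside 26.6% of all genes (12.3% and 14.2%). In 43 members the libraries of the lines did not overlap, beside 63.7% of all genes. None of the SMADs and intracellular regulators was 4-fold apart.

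BMP4 was the most divergent member. It was at 305, 260 and 192 rescaled counts in the HPAF-II libraries and at 0.246, 0.187 and 0.0932 in PANC-1, a log2 ratio of 10.41. BAMBI, the pseudoreceptor, was at 34.0, 33.9 and 41.5 in HPAF-II and 0.110, 0.155 and 0.108 in PANC-1 (log2 ratio 8.08). BMPR1B, a BMP receptor, was at 4.06, 4.75 and 2.77 against 0, 0.0603 and 0.0787 (6.10), and BMP2 at 3.11, 3.28 and 1.89 against 0.0876, 0.161 and 0.122 (4.37). ID2, a BMP target, was at 194, 205 and 188 in HPAF-II and 12.2, 9.44 and 11.1 in PANC-1 (4.17). These 5 were the members at least 4-fold higher in HPAF-II. With a pseudocount of 1 in place of 0.01, the log2 ratios were 7.75 for BMP4, 5.06 for BAMBI, 2.22 for BMPR1B and 1.74 for BMP2, the last below 4-fold. SMAD6 (3.25-fold), SMAD1 (3.00-fold) and BMP7 (2.62-fold) were also higher without overlap. Of the 6 further BMP targets, 3 were at least 4-fold lower and 0 at least 4-fold higher in HPAF-II (14.2% and 12.3% of all genes).

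The members that were lower in HPAF-II included activin and TGF-beta ligands, antagonists and LTBP1, LTBP2 and LTBP4. INHBB was at 0.150, 0.0917 and 0.0613 in HPAF-II and at 23.2, 23.6 and 22.2 in PANC-1 (log2 ratio -7.70), and INHBA at 0.0176, 0.243 and 0.123 against 6.31, 4.60 and 5.15 (-5.28). BMP6, in contrast to BMP2 and BMP4, was at 0.106, 0 and 0.0969 against 16.8, 16.1 and 18.2 (-7.78). TGFB2 was lower at 8.13, 9.47 and 4.15 against 36.1, 34.8 and 36.7 (-2.30), and TGFB3 at 0.0176, 0.235 and 0.142 against 0.952, 0.967 and 0.932 (-2.76), whereas TGFB1 was 1.55-fold higher in HPAF-II. LTBP2 was at 1.78, 1.90 and 2.50 against 77.2, 76.8 and 75.3 (-5.21), and LTBP1 at 0.935, 1.74 and 0.762 against 6.34, 6.24 and 7.11 (-2.51). LTBP4 was 2.38-fold lower in HPAF-II, while LTBP3 was 1.97-fold and BMP1 2.55-fold higher there, all without overlap. NOG, at 0.212, 0.0359 and 0.355 against 11.8, 11.6 and 11.5 (-5.79), was the antagonist with the widest gap among those with a ratio. Values this low in HPAF-II make the ratios unsteady. Without HPAF-II replicate 2 the log2 ratio was -6.06 for INHBA and -3.42 for TGFB3, and without HPAF-II replicate 3 it was -6.44 for NOG. With a pseudocount of 1 the ratios were -4.45 for INHBB, -4.08 for BMP6, -3.39 for NOG, -2.49 for INHBA and -0.79 for TGFB3.

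PMEPA1 was at 4.66, 8.04 and 4.84 in HPAF-II and at 148, 144 and 141 in PANC-1 (log2 ratio -4.62). FST was also lower (0.0132, 0 and 0.0484 against 0.322, 0.267 and 0.163, -3.09), at levels where the pseudocount sets the ratio, which was -0.29 with a pseudocount of 1 and -3.97 without HPAF-II replicate 3. GREM1 was at 0.0791, 0.0832 and 0.0117 and ID4 at 0.486, 0.402 and 0.207 in PANC-1. Of the 10 receptors, 5 were at least 2-fold higher and 2 lower in HPAF-II, and of the 7 SMADs 2 were higher and 1 lower. Of all genes compared, 21.1% were higher and 21.6% lower by this rule. TGFBR1 was 2.34-fold, ACVR1 3.53-fold and SMAD3 2.94-fold lower in HPAF-II, TGFBR3, ACVR2A and ACVR2B were more than 2-fold higher, and SMAD2, SMAD5, BMPR1A and BMPR2 were less than 2-fold apart. ID1 overlapped between the lines, at 477, 420 and 1027 in HPAF-II and 441, 401 and 405 in PANC-1. HPAF-II replicate 3 was also the highest for ID3 (158, against 71.5 and 60.1) and SMAD6 (66.2, against 34.5 and 31.9).

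**Figure D3:**
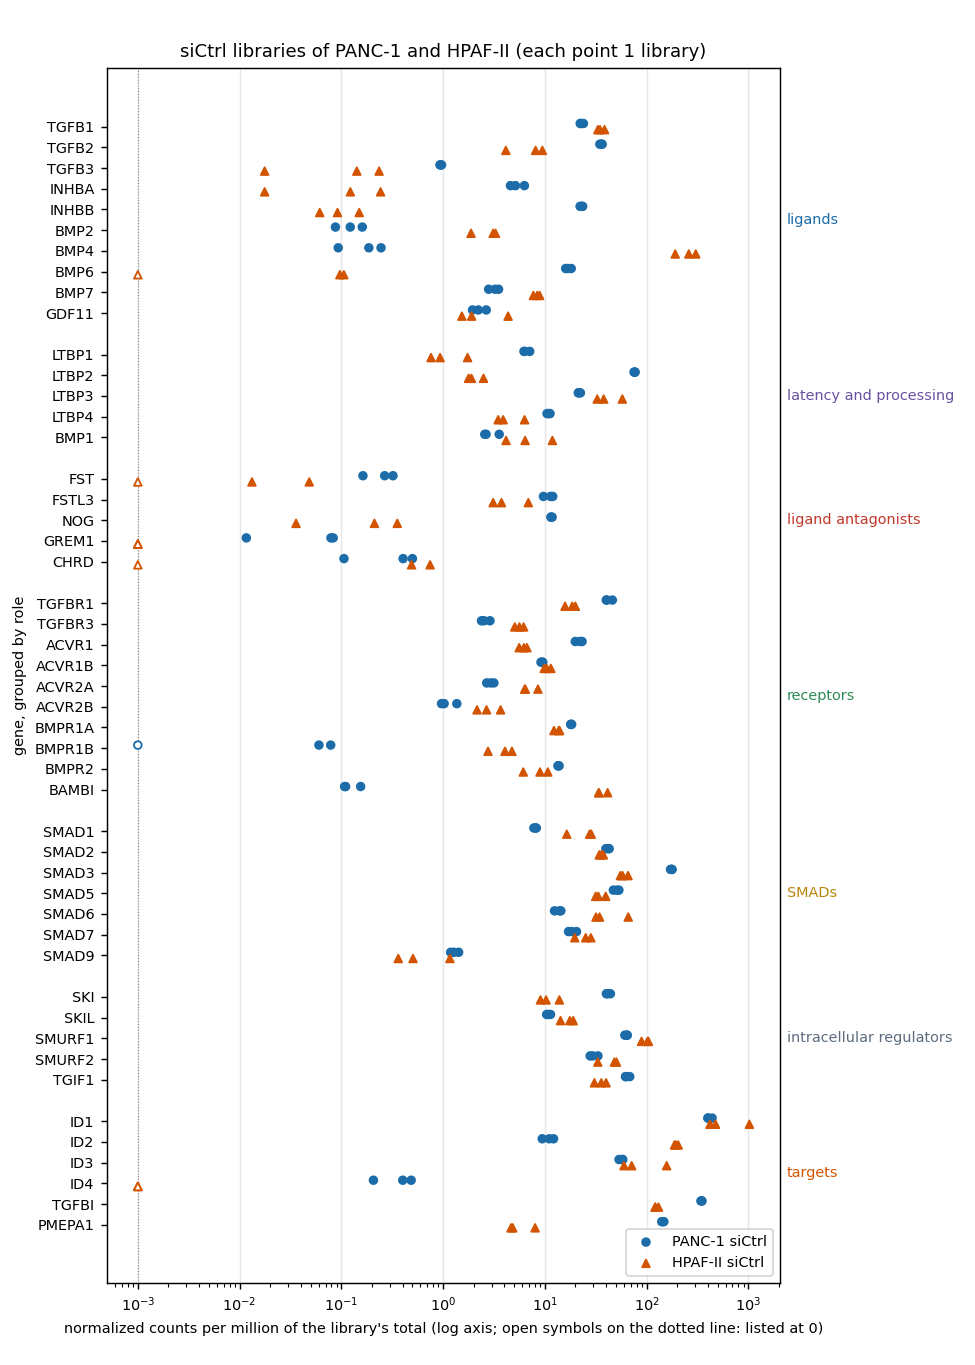
Rescaled counts of the 48 members in the siCtrl libraries of PANC-1 (circles) and HPAF-II (triangles), per 1000000 of the library's total on a log axis, grouped by role. Open symbols on the dotted line mark libraries listed at 0. BMP4 and BAMBI stand far to the right in HPAF-II, and INHBB, BMP6, INHBA, NOG, LTBP2 and PMEPA1 far to the right in PANC-1.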

How the data were processed

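PolyA-selected RNA of PANC-1 and HPAF-II cells was sequenced on the Illumina platform as read pairs. The submitters' processing notes name FastQC, STAR 2.7.5a, SAMtools, Picard, DESeq2 and hg38. The deposited signal values are counts per FAST DB gene that the authors divided by DESeq2 size factors, within each line's own table. In each of the 12 libraries 100% of the values were whole multiples of 1 step (within 0.01), with size factors of 0.810 to 1.15. Of the values of 1 to 30 steps, 82.1% to 84.8% could be divided by 3, which means that steps do not count fragments, whose number is not known. Totals were 226697015 to 376192091 steps. Strand and the counting of overlapping genes are not given in the sources used here, so the 23 members that overlap another listed gene are less certain.

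Log2(normalised count + 1) of the 9 PANC-1 libraries was fitted in 1 model with limma 3.58.1 (R 4.3.3, eBayes, trend on) for 22544 genes averaging 10 or more. P-values were adjusted by Benjamini-Hochberg over all of these genes, with a threshold of 0.05. The pseudocount understates changes of low genes, and the median SE of a log2 fold change was 0.141. Tested on simulated data for siQKI against siCtrl, the fit recovered 113 of 200 genes changed by at least 1.5-fold among 22544. Of these, 0 were in the wrong direction, and 8 false calls were made. The simulation changed far fewer genes than the 33.0% called in the real contrast and lacked the step pattern described above. Its false calls therefore do not give the error rate of the calls reported here. Summaries used Python 3.11.15, numpy 2.4.6, pandas 2.3.3 and matplotlib 3.10.9. The labels describe the libraries as replicates, and p-values measure only the spread between them.

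Members, pathway lists and tests were chosen with earlier results of these data known. Every library's value is given for 10 members called with a change of at least 1.5-fold in any contrast (mean at least 50) and for 17 members at least 4-fold apart between lines without overlap. Of the 85 further genes, the 3 largest called rises and falls per knockdown are named. Any other gene was named after its values were seen. Alternatives were pseudocounts of 0.1 and 10, other filters, upper-quartile and trimmed-mean (TMM) rescaling, fits of 2 groups alone, a replicate block, no variance trend, each library left out, and a minimum of 1.5-fold.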

Additional observations from a re-analysis of the deposited data

How the results depend on the processing

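With a minimum of 1.5-fold, the called members numbered 6 in siQKI, 4 in siRBFOX2 and 5 between the knockdowns, and the further pathway genes 11, 14 and 6, since that rule asks for more. Without the mean-variance trend, 11 members and 18 further genes were called in siRBFOX2, beside 4259 of all genes rather than 5985. Leaving out each library in turn gave 23 to 27 called members in siQKI, 12 to 19 in siRBFOX2 and 18 to 23 between the knockdowns. The calls of all genes then numbered 6217 to 7674, 4862 to 5956 and 3903 to 4793. The fall of RBFOX2 in siQKI missed the threshold after upper-quartile rescaling (log2 -0.23, limma adjusted p = 0.0664) and without the trend (-0.29, adjusted p = 0.114), and lay between -0.295 and -0.28 with 1 library left out. QKI in siRBFOX2 passed it after upper-quartile rescaling (0.17, adjusted p = 0.0455). The causes were not tested. ID2 in siRBFOX2, not called, lay between -0.133 and 0.0325 with 1 library left out and changed sign without siCtrl replicate 1 (adjusted p = 0.819). Of 1782 alternative values of named genes in the knockdown contrasts, 1625 kept their direction and side of the threshold, 151 lost the threshold and 5 newly passed it.

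Libraries with the same replicate number did not deviate together across the genes tested (r from -0.0325 to 0.0235 over 9 pairs, 0 of them above 0.1). Such r values include the noise of low genes and cannot tell whether these libraries were prepared together. With the replicate number as a block, INHBA (log2 -0.39, limma adjusted p = 0.0553), LTBP2 (-0.11, 0.0515), FST (1.32, 0.0514), SMAD1 (0.19, 0.0517) and SMURF1 (0.12, 0.0569) lost their call in siRBFOX2, and no other call of a member changed.

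Between the lines, 25 to 33 members were at least 2-fold apart without overlap over 13 alternatives, and ratios of scarce genes shrank with a pseudocount of 1, for example from 4.37 to 1.74 for BMP2 and from -3.09 to -0.29 for FST. Count tests of edgeR and DESeq2 were not run, since the steps are not fragments. FST, BMP2, BMP4, GREM1, BMPR1B and BAMBI were scarce in PANC-1, with SEs of 0.433 to 1.77 on the log2 scale, so small changes were not detectable.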
